A study of Mus musculus and Acomys cahirinus with 25 samples.

Results

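Cadherins are the transmembrane proteins that join a cell to its neighbours, and 10 genes of this system are described here, namely the classical cadherins Cdh1 (E-cadherin), Cdh2 (N-cadherin), Cdh3 (P-cadherin) and Cdh11 (OB-cadherin), the desmosomal cadherins Dsg2, Dsg3, Dsc1, Dsc2 and Dsc3, and Dsp (desmoplakin). They were chosen by name, as a reading of cadherin switching, and make up 10 of the 24500 gene symbols counted in each of 25 RNA-seq libraries. The study compared healing full-thickness back wounds, in which new hair follicles form at the wound center of laboratory mice and across the wound of spiny mice (Acomys cahirinus). All laboratory mouse libraries came from wounds collected at post-wound day (PWD) 14. The methods of the paper give 4 weeks as the age at wounding, and its results a younger age for C57Bl/6 mice. C57BL/6J was the main strain of the study, and K14-Cre-Twist1 mice were bred from a conditional Twist1 line and a keratin 14 Cre line, with Twist1+/+ mice as their controls. Wound center and wound margin epidermis of wild-type (WT) mice had 2 libraries each. Wound center dermis of WT mice had 5 libraries, of which 2 were compared with 2 libraries of WT wound margin dermis and the other 3 (Twist1+/+ controls) with 2 libraries of wound center dermis from K14-Cre-Twist1 mice. In those mice Twist1 is deleted by a Cre recombinase under the keratin 14 promoter, that is, in keratinocytes, so the dermal Twist1 level is no check of the deletion. The labels give no pairing of layers or regions by animal. Spiny mouse libraries were unwounded skin (PWD0) and whole wounds at PWD14, 21 and 28 of animals about 2 months old, with 1, 2, 2 and 1 libraries of epidermis and 2, 1, 2 and 1 of dermis. These days are those of the labels, and the sample list of the study gives slightly different ones for the spiny mouse wounds.

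Classical cadherins bind a partner of the same kind on the next cell and are tied to actin inside the cell through catenins. Desmosomal cadherins (desmogleins and desmocollins) are tied to keratin filaments through plakoglobin, plakophilins and desmoplakin, and desmosomes are a hallmark of the epidermis. Epithelia are known for Cdh1, basal keratinocytes and hair placodes for Cdh3, and mesenchymal cells for Cdh2 and Cdh11. Cadherin switching is the name for a loss of Cdh1 with a gain of Cdh2, Cdh11 or Cdh3, as in an epithelial-mesenchymal transition.

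Of the members, a RefSeq promoter (250 bases before the gene start, GRCm38.p6) was matched for Dsp, the member with the widest range of levels in dermis, at chr13:38151044-38151293 on the plus strand. It was searched on both strands for the letters CANNTG, the E-box that basic helix-loop-helix proteins such as TWIST1 bind, and a match would stand in capitals.

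Dsp: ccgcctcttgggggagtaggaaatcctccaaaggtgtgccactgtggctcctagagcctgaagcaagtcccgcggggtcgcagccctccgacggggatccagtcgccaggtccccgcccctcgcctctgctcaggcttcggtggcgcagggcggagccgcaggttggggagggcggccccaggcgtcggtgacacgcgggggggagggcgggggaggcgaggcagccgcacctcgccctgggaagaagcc

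These letters held 0 matches to CANNTG, which 66.2% of 32851 RefSeq promoters of the same length hold. That is a description of this window only.

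Libraries held between 19413261 and 86532134 reads on genes in the laboratory mouse and between 5669760 and 34751956 in the spiny mouse. Levels are given as CPM, the reads of a gene scaled to a common total of reads on all genes, and the floor of 3 counts lay between 0.0347 and 0.155 CPM in laboratory mouse libraries and between 0.0863 and 0.529 CPM in spiny mouse libraries. Such floors cover counting error only. Spiny mouse reads were aligned to the laboratory mouse genome, so levels were not compared between the species. The summed level of 14 keratinocyte markers was 142642 to 203927 CPM in laboratory mouse epidermis. In dermis it was 134 to 4237 CPM outside the second K14-Cre-Twist1 library, which held 32530 CPM and stood apart. The 15 fibroblast markers summed to 106252 to 199370 CPM in dermis and to 1104 to 7445 CPM in epidermis. The separated epidermis and dermis thus carried the markers of their labels, each with some of the other layer.

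On mm10 (GRCm38), Cdh1 lies on chromosome 8 from 106603350 to 106670247, and Cdh3 lies just before it on the same strand, from 106510852 to 106556911. Cdh11 is on the same chromosome, from 102632095 to 102785493 on the minus strand. Cdh2 is on chromosome 18, from 16588877 to 16809246, as are the 5 desmosomal cadherins, in one cluster that runs from the start of Dsc3 at 19960930 to the end of Dsg2 at 20604526. Dsp is on chromosome 13, from 38151294 to 38198577.

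In laboratory mouse epidermis, Cdh1 and the genes of the desmosome were abundant and Cdh2 was the lowest member, at 12 to 84 counts per library. Levels were compared between genes after division by the length of each gene's exons (CPM per kilobase). Over the 4 epidermis libraries the mean was 644 CPM per kilobase for Dsc1, the desmocollin of the upper layers, and 606 for Dsp, the linker to keratin filaments. It was 258 for Dsc3, the basal layer desmocollin, and 191 for Cdh1. Dsg3, a desmoglein of the lower layers, came to 19.2, Cdh3 to 15.0, Dsc2 to 7.88, Dsg2 to 5.24, Cdh11 to 3.15 and Cdh2 to 0.14 on the same scale. The 4 leading genes were the same at the wound center and the wound margin, while Dsc1 and Dsp changed places between the wound center (612 and 526) and the wound margin (677 and 685). In dermis of the same mice, Cdh11 led with a mean of 84.4 CPM per kilobase over 9 libraries. The order of the others rested on the second K14-Cre-Twist1 library, which held most of the reads of Dsp, Dsc3, Dsc1 and Cdh1. Over the other 8 libraries the mean was 89.7 CPM per kilobase for Cdh11, 8.93 for Cdh3, 8.35 for Dsp, 7.85 for Cdh2, 6.66 for Dsc3, 5.75 for Dsc1 and 3.53 for Cdh1.

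All 10 members differed between epidermis and dermis at the wound center, at the wound margin and in the spiny mouse at PWD21 (edgeR quasi-likelihood test, FDR, the Benjamini-Hochberg adjusted p, under 0.05). Of all genes tested, 56.1%, 47.7% and 62.9% passed in these 3 comparisons, so the counts of members are read against a high background. Cdh2 and Cdh11 were lower in epidermis and the other 8 members higher, in each of the 3. Of all genes, 29.3%, 20.9% and 29.4% were called higher in epidermis and 26.8%, 26.8% and 33.5% lower. Cdh1 held 688 and 779 CPM in wound center epidermis and 5.71 and 9.68 CPM in wound center dermis. Its log2 fold change of epidermis over dermis was 7.37 (SE 0.32) at the wound center, 5.14 (SE 0.49) at the wound margin and 3.259 (SE 0.33) in the spiny mouse. Cdh11, a cadherin of fibroblasts and osteoblasts, held 33.1 and 25.5 CPM in wound center epidermis and 320 and 456 CPM in wound center dermis. Its log2 fold changes over the same comparisons were -2.94 (SE 0.23), -5.33 (SE 0.55) and -10.12 (SE 0.51).

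Cdh3 stood out among the 8 by the small size of its layer difference. Its log2 fold change of epidermis over dermis was 1.77 (SE 0.22) at the wound center, 1.33 (SE 0.33) at the wound margin and 2.18 (SE 0.23) in the spiny mouse at PWD21. In the laboratory mouse these were the smallest of the 8 genes higher in epidermis, and in the spiny mouse those of Dsc2 (0.77, SE 0.23) and Dsg2 (1.51, SE 0.31) were smaller. Differences between genes in these fold changes were not tested. At the wound margin Cdh3 was not called with library size alone (0.49, FDR 0.218), with all laboratory mouse libraries in one fit (FDR 0.0862) or without either dermis library (FDR 0.0779 and 0.110). Dsc2 was not called by DESeq2 at the wound center (FDR 0.0530) or, in the spiny mouse, with all libraries in one fit (FDR 0.127), with library size alone (FDR 0.0504) or without either epidermis library (FDR 0.106 and 0.139). In dermis, Cdh3 ranged from 16.7 to 68.1 CPM over the 9 laboratory mouse libraries and from 14.6 to 31.2 CPM over the 6 spiny mouse libraries. The ends of the laboratory mouse range were the first (16.7 CPM) and second (68.1 CPM) K14-Cre-Twist1 libraries. The second also held the highest keratinocyte marker sum of these dermis libraries (32530 CPM). Among the other laboratory mouse dermis libraries, and in spiny mouse dermis, Cdh3 did not rise with that sum. Per 1000 CPM of keratinocyte markers, Cdh3 held 2.09 to 380 CPM in laboratory mouse dermis against 0.231 to 0.569 CPM in epidermis. In the 3 Twist1+/+ libraries Cdh3 held 54.9, 21.9 and 66.0 CPM, where Dsc1, Dsc2, Dsc3, Dsg2 and Dsg3 were each at 0 counts. Which cells of the dermis held these Cdh3 reads was not tested.

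Laboratory mouse layers also differed in their reads (strand-specific paired-end reads for epidermis, strand-specific single-end reads for dermis), which cannot be told apart from the layer. Both layers of the spiny mouse were read in the same way, as single-end reads without strand. With library size in place of TMM normalization, the median log2 fold change of all genes moved from 0.05 to -0.73 at the wound center and from -0.16 to -0.98 at the wound margin. Calls then split into 2435 higher and 6160 lower at the wound center, in place of 4203 and 3835, and into 1599 and 6192 at the wound margin, in place of 3126 and 4015.

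**Figure D1:**
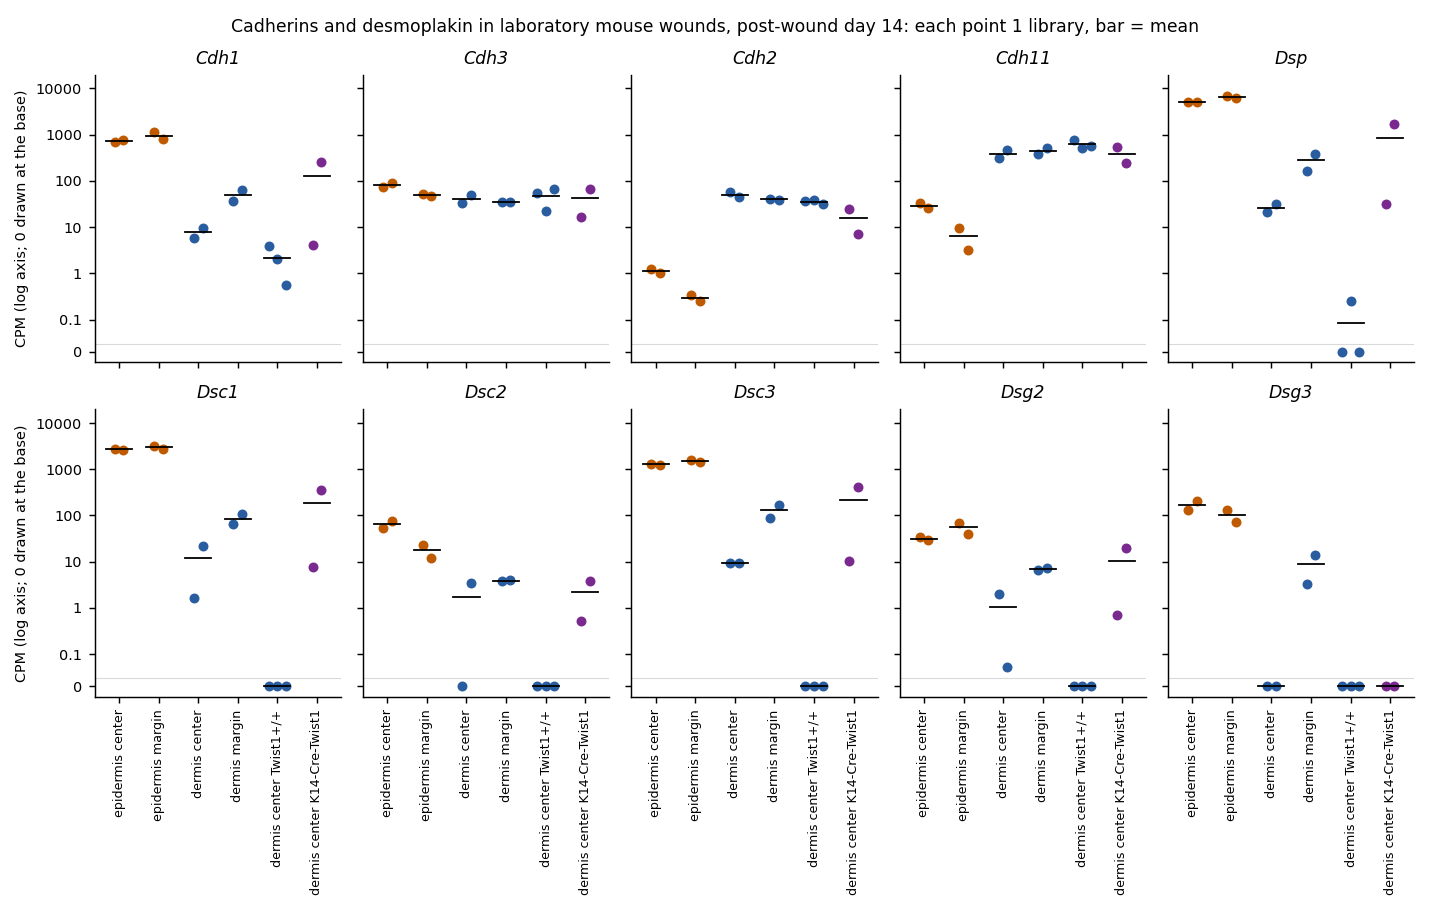
Levels of the 10 members in the 13 laboratory mouse libraries (CPM on a log axis, with 0 drawn at the base), with 1 point per library and a bar at each group's mean. Cdh1, Dsp, Dsc1, Dsc3 and Dsg3 are high in epidermis, Cdh2 and Cdh11 in dermis, and Cdh3 stays between 16.7 and 87.8 CPM in all libraries. The second K14-Cre-Twist1 library lies far above the first in Dsp (1704 against 31.3 CPM).

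Wound center epidermis was set against that of the wound margin to ask whether cadherins differ where placodes form. None of the 10 members passed an FDR of 0.05, where 1.24% of all 14165 genes tested did (176 genes). By the unadjusted p of edgeR's quasi-likelihood test, 5 members were under 0.05, as were 23.5% of all genes. Cdh11, Cdh2, Dsc2 and Cdh3 had higher values at the wound center and Dsg2 had lower ones. Over the list, 5 members had a positive log2 fold change, and the median was 0.17 against -0.02 over all genes.

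Cdh1 held 688 and 779 CPM at the wound center and 1125 and 791 CPM at the wound margin. The lower margin library lay just above the higher center library, and the log2 fold change was -0.50 (SE 0.30, FDR 0.352). Cdh3, the P-cadherin of basal cells and placodes, held 74.5 and 87.8 CPM at the wound center and 53.3 and 47.2 CPM at the wound margin. Both center libraries lay above both margin libraries, with a log2 fold change of 0.59 (SE 0.23, FDR 0.205, unadjusted p = 0.046 by edgeR). Cdh11 held 33.1 and 25.5 CPM at the wound center and 9.52 and 3.15 CPM at the wound margin. Its groups did not overlap either, with a log2 fold change of 2.20 (SE 0.56, FDR 0.117). Cdh2 held 1.24 and 1.01 CPM at the wound center and 0.34 and 0.25 CPM at the wound margin, with a log2 difference of 1.92 (SE 0.69, FDR 0.173). These levels are above the floor of the libraries and far below those of Cdh1.

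Among the desmosomal genes, Dsc2, the broadly expressed desmocollin, held 52.3 and 77.5 CPM at the wound center and 23.2 and 12.2 CPM at the wound margin. Its log2 fold change of 1.79 (SE 0.42, FDR 0.106) went against that of Dsg2, the broadly expressed desmoglein. Dsg2 held 34.3 and 28.8 CPM at the wound center and 69.9 and 40.3 CPM at the wound margin, with a log2 difference of -0.92 (SE 0.35, FDR 0.193). The remaining 4 lay between -0.49 for Dsp and 0.62 for Dsg3, each with a standard error of 0.25 to 0.39. Dsp held 5066 and 5032 CPM at the wound center and 6852 and 6285 CPM at the wound margin.

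Fibroblast markers moved with Cdh11 and Cdh2 in these libraries. They summed to 7445 and 6120 CPM at the wound center and to 2860 and 1104 CPM at the wound margin. Per 1000 CPM of fibroblast markers, Cdh11 held 4.44 and 4.16 CPM at the wound center and 3.33 and 2.86 CPM at the wound margin, which is within the 1.60 to 4.98 CPM seen in laboratory mouse dermis. Of the 15 markers 2 passed the test, both higher at the wound center, and endothelial markers summed to 26.5 and 20.0 CPM at the wound center and 4.25 and 1.39 CPM at the wound margin. Of the markers of the hair shaft and inner root sheath 6 were tested, with a median log2 fold change of -6.51 and 1 called lower, and their sums overlapped (46.6 and 49.4 CPM against 14.8 and 65.1 CPM). Of 6 leukocyte markers 1 was called lower. Their part in the result was not tested. The fit without the first margin library called 7 members and 36.4% of all genes, and that without the second 8 members and 50.9%, each on 3 libraries. DESeq2 called Cdh11 and Dsc2, and 10.7% of all genes.

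None of 13 catenin and plaque genes tested, 3 other desmosomal cadherins or 4 other cadherins passed. Of 16 switching regulators and mesenchymal genes tested 2 passed. Twist2, a basic helix-loop-helix repressor of dermal cells, was higher at the wound center (means of 7.70 and 0.904 CPM, log2 fold change 3.01, SE 0.45, FDR 0.0496). Fn1, which encodes fibronectin, was higher too (means of 107 and 29.0 CPM, log2 fold change 1.78, SE 0.23, FDR 0.0390). Twist1, the repressor studied, held 11.8 and 9.95 CPM at the wound center and 4.93 and 1.41 CPM at the wound margin, with a log2 fold change of 1.86 (SE 0.62, FDR 0.162). Vim, the intermediate filament gene of mesenchymal cells, came to 0.35 (SE 0.30, FDR 0.513).

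In wound center dermis, 3 members were lower than in wound margin dermis and none was higher, where 0.735% of 14698 genes tested were called lower (0.85% in either direction). They were Cdh1, Dsc3 and Dsp. Cdh1 held 5.71 and 9.68 CPM at the wound center and 37.0 and 61.9 CPM at the wound margin, with a log2 difference of -2.60 (SE 0.45, FDR 0.0229). Dsc3 held 9.52 and 9.17 CPM at the wound center and 88.5 and 170 CPM at the wound margin, with a log2 difference of -3.69 (SE 0.38, FDR 0.00148). Dsp held 21.3 and 31.3 CPM at the wound center and 167 and 390 CPM at the wound margin, with a log2 difference of -3.31 (SE 0.38, FDR 0.00284). The groups of all 3 were far apart.

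Dsg3 was at 0 counts in both center libraries and at 3.23 and 14.2 CPM in the margin libraries (FDR 0.185). By the mean of the margin libraries over the higher floor of the center libraries, it was at least 56.4-fold lower at the wound center. Dsc1 held 1.68 and 22.1 CPM at the wound center and 64.4 and 106 CPM at the wound margin, with an FDR of 0.0661. The mesenchymal cadherins did not pass the test. Cdh11 held 320 and 456 CPM at the wound center and 381 and 515 CPM at the wound margin (log2 fold change -0.12, SE 0.21, FDR 0.854). Cdh2 held 56.2 and 43.8 CPM at the wound center and 40.8 and 39.3 CPM at the wound margin (log2 fold change 0.42, SE 0.29, FDR 0.548). Cdh3 held 33.7 and 48.7 CPM at the wound center and 35.7 and 35.6 CPM at the wound margin, so that its groups overlapped.

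The list median in dermis was -2.58 against -0.03 over all genes. Of 13 catenin and plaque genes 4 passed, all lower at the wound center. They were Pkp1 and Pkp3 (plakophilins, -3.78 and -2.79), Perp (a desmosomal tetraspan protein, -4.32) and Ppl (periplakin, -4.70), as log2 fold changes. Dsg1a (-5.25), whose reads may be shared with its near copies Dsg1b and Dsg1c, and Grhl1, an activator of desmosomal cadherin genes, passed as well. None of 8 other cadherins did. Keratinocyte markers moved with these genes. They summed to 825 and 551 CPM at the wound center and to 2139 and 4237 CPM at the wound margin, with 5 of 14 called, all lower at the wound center. Markers of the hair shaft and inner root sheath summed to 4.31 and 0 CPM against 817 and 844 CPM, and 6 of 8 were called lower. Schwann cell markers summed to 168 and 126 CPM against 584 and 447 CPM, and 2 of 6 were called lower. Fewer cells of a type and less RNA per cell cannot be told apart in such bulk libraries, and the part of these cells in the result was not tested. With all laboratory mouse libraries in one fit none of the 3 genes passed (FDR 0.495 to 0.628), and without the second margin library 1 member did, as did 19 of 15236 genes in all. Cdh1 did not pass without the first either (FDR 0.120), nor by the edgeR 3 estimate (FDR 0.0722).

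The center-margin difference was set against the layer in one interaction test over 8 libraries, in which 5 members passed, all with a higher value in epidermis, against 3.48% of 15531 genes tested (3.34% in that direction). For Cdh1 the difference of epidermis minus that of dermis was 2.25 (SE 0.49, FDR 0.0303), for Dsc3 3.48 (SE 0.49, FDR 0.00394), for Dsp 2.97 (SE 0.67, FDR 0.0365) and for Cdh11 2.44 (SE 0.59, FDR 0.0483) on the log2 scale. Dsg3, at 0 in center dermis, passed too (FDR 0.0172). The median over all genes was itself 0.31 on this scale, and the count fell to 2 members with RLE normalization and ranged from 1 to 5 with a library left out. Markers were called in the same direction in this test, with 5 of 14 for keratinocytes, 4 of 15 for fibroblasts and 3 of 6 for endothelium, and their part in the result was not tested.

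**Figure D2:**
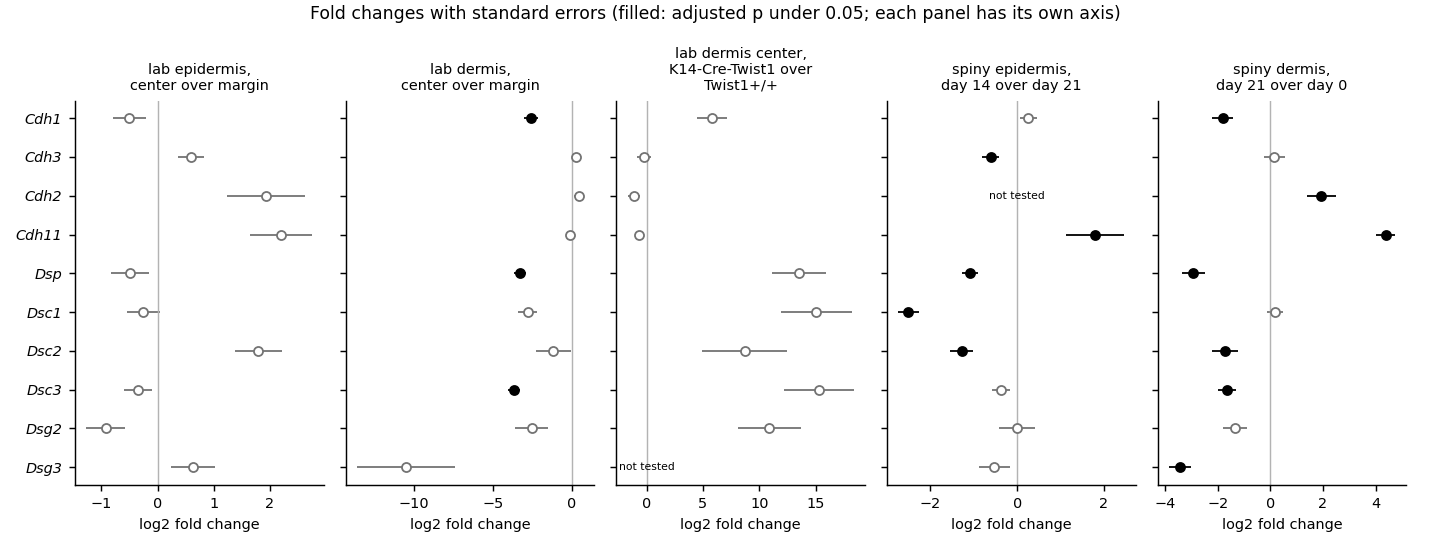
Log2 fold changes of the 10 members with their standard errors (edgeR) in 5 comparisons, each on its own axis, with filled points for an FDR under 0.05. No point is filled in laboratory mouse epidermis or in the K14-Cre-Twist1 comparison, 3 are filled in laboratory mouse dermis, 5 in spiny mouse epidermis and 7 in spiny mouse dermis.

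The K14-Cre-Twist1 comparison asks how wound center dermis differs when keratinocytes lack Twist1. None of the 9 members tested passed, where 0.0565% of 14163 genes tested did (8 genes), and Dsg3, at 0 counts in all 5 libraries, was not tested. By the unadjusted p of edgeR 5 of the 9 were under 0.05, beside 11.5% of all genes, and DESeq2 called 5, beside 5.56%. The K14-Cre-Twist1 libraries lay far apart. Cdh1 held 3.91, 2.07 and 0.57 CPM in Twist1+/+ dermis and 4.14 and 254 CPM in K14-Cre-Twist1 dermis (log2 fold change 5.81, SE 1.33, FDR 0.261). Dsp held 0, 0.25 and 0 CPM in Twist1+/+ dermis and 31.3 and 1704 CPM in K14-Cre-Twist1 dermis (FDR 0.197). Dsc1 and Dsc3 were at 0 counts in the 3 Twist1+/+ libraries and at 7.81 and 10.3 CPM in the first and 362 and 422 CPM in the second K14-Cre-Twist1 library.

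Keratinocyte markers were also higher in K14-Cre-Twist1 dermis. They summed to 144, 134 and 220 CPM in Twist1+/+ dermis, to 1125 CPM in the first K14-Cre-Twist1 library and to 32530 CPM in the second, and up to 5 of the 14 were at 0 in a Twist1+/+ library. Per 1000 CPM of these markers, Dsp held 0 to 1.89 CPM in Twist1+/+ and 27.8 to 52.4 CPM in K14-Cre-Twist1 dermis. Cdh1 overlapped on that scale, at 2.59 to 27.1 CPM and 3.68 to 7.80 CPM. Krt14, the defining keratin of basal keratinocytes, held 1.08 to 6.72 CPM in Twist1+/+ dermis and 398 and 4707 CPM in K14-Cre-Twist1 dermis. Their part in the result was not tested. Without the second K14-Cre-Twist1 library 1 member passed (Dsp, log2 fold change 8.80, FDR 0.0333), beside 0.18% of all genes, and the log2 fold change of Cdh1 was 0.92 (FDR 0.905). Without the first 7 members passed, beside 22.5% of all genes.

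The mesenchymal cadherins were at lower values in the second K14-Cre-Twist1 library. Cdh11 held 779, 508 and 562 CPM in Twist1+/+ dermis and 531 and 240 CPM in K14-Cre-Twist1 dermis (log2 fold change -0.67, SE 0.38, FDR 0.507). Cdh2 held 37.0, 37.7 and 32.0 CPM in Twist1+/+ dermis and 24.6 and 7.14 CPM in K14-Cre-Twist1 dermis (log2 fold change -1.15, SE 0.53, FDR 0.442). The groups of Cdh11 overlapped and those of Cdh2 did not. None of the 38 other cadherin, plaque and switching genes tested passed. The 2 sets of WT center dermis, though of the same label, did not overlap in Dsp (21.3 and 31.3 CPM against at most 0.25 CPM) or in the keratinocyte marker sum (825 and 551 CPM against at most 220 CPM).

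In spiny mouse epidermis, 8 of 10 members differed by day when all 6 libraries were tested together, beside 59.5% of all genes tested. Cdh2 (FDR 0.0985) and Dsg3 (FDR 0.308) did not pass. The days with 1 library are assumed in that fit to vary like the days with 2. Dsp held 7437 CPM in unwounded epidermis, 1280 and 1013 CPM at PWD14, 3291 and 3837 CPM at PWD21 and 4828 CPM at PWD28. Dsc1 held 847 CPM, then 106 and 98.1 CPM, 624 and 1082 CPM and 537.5 CPM on the same days. Both were lowest at PWD14, and the values of PWD14 and PWD21 did not overlap.

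Between PWD14 and PWD21, the 2 days with 2 libraries each, 5 of 9 members tested passed, against 46.6% of 12889 genes tested (23.4% higher and 23.2% lower at PWD14). The share of reads on genes was 26.8% and 24.4% at PWD14 and 34.1% and 38.3% at PWD21, which cannot be told apart from the day. Dsc1 was lower at PWD14 (log2 fold change -2.51, SE 0.23, FDR 5.17e-05), as were Dsc2 (-1.28, SE 0.27, FDR 0.00280), Dsp (-1.08, SE 0.18, FDR 0.000834) and Cdh3 (-0.61, SE 0.19, FDR 0.0203). Cdh3 held 44.6 and 46.1 CPM at PWD14 and 114 and 88.2 CPM at PWD21, beside 60.7 CPM in unwounded epidermis and 90.01 CPM at PWD28. With all spiny mouse libraries in one fit 3 members passed, with neither Cdh3 (FDR 0.130) nor Dsc2 (FDR 0.0506) among them, and Cdh3 did not pass without the first PWD21 library (FDR 0.271).

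Cdh11 was called higher at PWD14 (log2 fold change 1.80, SE 0.67, FDR 0.0455), on low levels of 4.34 and 1.08 CPM at PWD14 against 1.42 and 0.51 CPM at PWD21, which overlap. Without the first PWD14 library the log2 fold change was 0.51 (FDR 0.593). It was not called with library size alone (FDR 0.127), without the filter on low counts (FDR 0.0615) or by the edgeR 3 estimate (FDR 0.0633). The fibroblast marker sum was lower at PWD14, at 696 and 743 CPM, than at PWD21, at 1927 and 2031 CPM. The single markers were mixed. Of 14 tested 2 were called higher and 2 lower at PWD14, with a median log2 fold change of 0.12. The marker median per library overlapped, at 5.17 to 11.5 CPM at PWD14 and 5.25 to 9.28 CPM at PWD21. Cdh2 was at 0 and 0.32 CPM at PWD14 and at 0.03 and 0.06 CPM at PWD21, too low to be tested.

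Cdh1 held 262 CPM in unwounded epidermis, 106 and 75.1 CPM at PWD14, 106 and 117 CPM at PWD21 and 211 CPM at PWD28. Its log2 fold change of PWD14 over PWD21 was 0.26 (SE 0.20, FDR 0.310) with TMM normalization and -0.30 with library size alone. The median of all genes moved from -0.04 to -0.59 between these scalings, and the calls from 3011 higher and 2991 lower to 1335 higher and 5721 lower. Keratinocyte markers summed to 127201 and 105211 CPM at PWD14, 88412 and 79130 CPM at PWD21, 52264 CPM in unwounded epidermis and 41003 CPM at PWD28. Their median was lowest at PWD14, at 231 to 263 CPM, against 444 to 456 CPM at PWD21, 1314 CPM in unwounded epidermis and 946 CPM at PWD28. Between PWD14 and PWD21, 5 of the 14 were called higher and 2 lower at PWD14. Markers of the hair shaft and inner root sheath summed to 36.7 and 60.6 CPM at PWD14 and to 1186 and 588 CPM at PWD21, and all 8 were called lower at PWD14. Their part in the result was not tested.

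Of the partners, 4 of 13 catenin and plaque genes passed between these days. Ctnna1 (alpha-catenin, -0.89), Perp (-1.39) and Ppl (-0.55) were lower at PWD14 and Pkp3 (0.72) was higher, as log2 fold changes. All 4 of Dsg1a, Dsg1b, Dsg1c and Dsg4 were lower (-1.92 to -0.45). Of 15 switching regulators and mesenchymal genes 7 passed, a share like that of all genes (46.6%). Twist1 (1.52), Zeb2 (1.29) and Ovol2 (1.69) were higher at PWD14, each at mean levels of 0.585 to 5.18 CPM. Grhl1 (-0.59), Grhl3 (-0.89), Esrp1 (-1.14) and Esrp2 (-1.07) were lower. These are regulators of the epithelial state, as is Ovol2, which was higher, so such regulators went both ways.

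**Figure D3:**
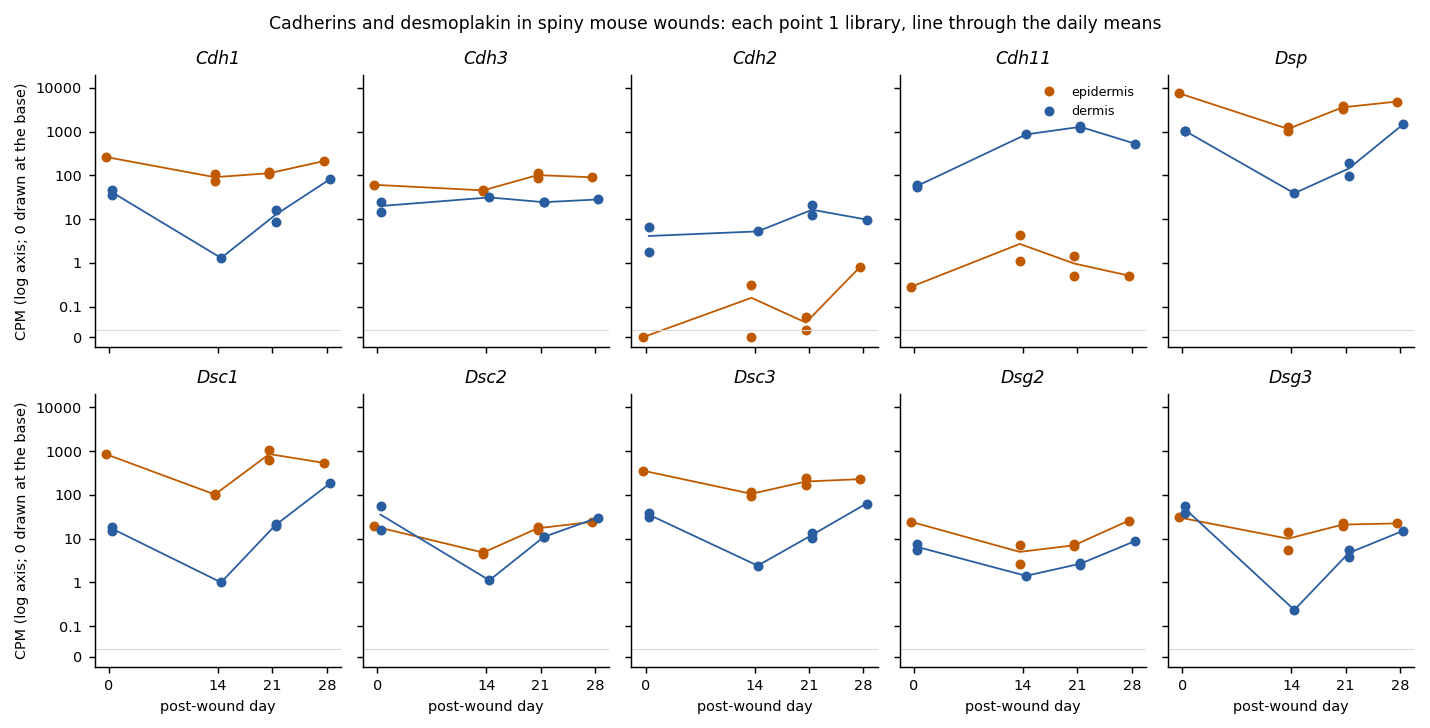
Levels of the 10 members in the 12 spiny mouse libraries by post-wound day (CPM on a log axis, with 0 drawn at the base), with 1 point per library and lines through the daily means. Dsp in dermis falls from 1024 and 1015 CPM at PWD0 to 38.9 CPM at PWD14 and stands at 1462 CPM at PWD28, while dermal Cdh11 goes from 52.9 and 61.1 CPM at PWD0 to 1360 and 1195 CPM at PWD21 and 529 CPM at PWD28.

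In spiny mouse dermis, 7 of 10 members differed between PWD21 and unwounded skin, where 26.2% of 14481 genes tested did (1742 genes higher at PWD21, and 2050 or 14.2% lower). Reads on genes were 5669760 and 6804714 at PWD0 and 21927269 and 34751956 at PWD21. Reads of low alignment quality made up 60.5% and 55.2% at PWD0 and 44.8% and 38.0% at PWD21. Depth and alignment thus differed with the day and cannot be told apart from it. Cdh11 and Cdh2 rose, and Cdh1, Dsg3, Dsc2, Dsc3 and Dsp fell. Cdh11 held 52.9 and 61.1 CPM at PWD0, 858 CPM at PWD14, 1360 and 1195 CPM at PWD21 and 529 CPM at PWD28. All wound libraries lay above both of unwounded skin, and the log2 fold change of PWD21 over PWD0 was 4.38 (SE 0.36, FDR 0.000284). Cdh2 held 1.76 and 6.47 CPM at PWD0, 5.24 CPM at PWD14, 12.1 and 20.6 CPM at PWD21 and 9.75 CPM at PWD28. Its log2 fold change was 1.93 (SE 0.56, FDR 0.0359), and the PWD14 value lay within the range of unwounded skin.

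Cdh1 held 46.4 and 35.3 CPM at PWD0, 1.30 CPM at PWD14, 8.80 and 16.3 CPM at PWD21 and 81.5 CPM at PWD28, and fell by 1.82 on the log2 scale to PWD21 (SE 0.41, FDR 0.0143). Dsg3 held 56.4 and 37.8 CPM at PWD0, 0.24 CPM at PWD14, 3.88 and 5.52 CPM at PWD21 and 15.1 CPM at PWD28, and fell by 3.45 (SE 0.41, FDR 0.00104). Dsp held 1024 and 1015 CPM at PWD0, 38.9 CPM at PWD14, 93.9 and 191 CPM at PWD21 and 1462 CPM at PWD28, and fell by 2.94 (SE 0.43, FDR 0.00255). The lowest value of each was that of PWD14, and at PWD28 Cdh1 and Dsp were above, and Dsg3 below, unwounded skin. Dsc2 fell by 1.73 (SE 0.49, FDR 0.0328) and Dsc3 by 1.65 (SE 0.35, FDR 0.0111).

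Cdh3 did not pass the test in dermis. It held 25.2 and 14.6 CPM at PWD0, 31.2 CPM at PWD14, 24.1 and 24.6 CPM at PWD21 and 28.1 CPM at PWD28, with overlapping groups and a log2 fold change of 0.15 (SE 0.39, FDR 0.804). Dsc1 held 15.0 and 18.7 CPM at PWD0 and 21.3 and 19.5 CPM at PWD21 (FDR 0.695), and 183 CPM at PWD28. When all 6 dermis libraries were tested together 7 members passed, Dsc1 (FDR 0.000363) in place of Cdh2 (FDR 0.1004), beside 24.7% of all genes. Cdh3 (FDR 0.453) and Dsg2 (FDR 0.0566) did not.

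Markers of both layers also differed between the days. Keratinocyte markers summed to 26405 and 16314 CPM in unwounded dermis, 2100 CPM at PWD14, 1191 and 1727 CPM at PWD21 and 4632 CPM at PWD28, and 10 of 14 were called lower at PWD21. Their sum was lowest at PWD21 and their median at PWD14 (24.5 CPM). Per 1000 CPM of keratinocyte markers, Cdh1 held 1.76 to 2.16 CPM at PWD0 and 7.39 to 9.41 CPM at PWD21. Dsp held 38.8 to 62.2 CPM at PWD0, 78.9 to 111 CPM at PWD21 and 316 CPM at PWD28 on that scale. Fibroblast markers summed to 114084 and 77774 CPM in unwounded dermis and to 152806 and 185195 CPM at PWD21, with 8 of 15 called higher. Per 1000 CPM of fibroblast markers, Cdh11 held 0.464 and 0.786 CPM at PWD0 and 8.90 and 6.45 CPM at PWD21. At PWD28 markers of the hair shaft and inner root sheath summed to 33631 CPM, against 84.3 and 5762 CPM at PWD0. All 6 skeletal muscle markers were called lower at PWD21. The part of these cells in the result was not tested. Without the first PWD21 library 3 members passed, beside 9.64% of all genes, and Cdh1 (FDR 0.0987) and Dsc3 (FDR 0.0926) were not among them. Dsc2 did not pass without either PWD21 library (FDR 0.147 and 0.160) or the second PWD0 library (FDR 0.216), and Cdh2 did not pass without either PWD21 library (FDR 0.0688 and 0.251).

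Of the partners in spiny mouse dermis, 6 of 14 catenin and plaque genes passed, all lower at PWD21 than in unwounded skin. They were Pkp1 (-2.72), Pkp2 (-2.76), Pkp3 (-2.88), Perp (-4.08), Ppl (-1.57) and Evpl (envoplakin, -1.81), as log2 fold changes. Of 9 other cadherins, Cdh5 of endothelium (1.93) and Cdh13 (1.17) were higher and Cdh4 (-4.31) and Cdh18 (-2.89) lower. Of 15 switching regulators and mesenchymal genes 10 passed, beside 26.2% of all genes. Twist1 (1.48), Twist2 (2.14), Snai2 (2.74), Zeb2 (1.36) and Fn1 (4.61) were higher, and Grhl1 (-2.05), Grhl2 (-2.21), Ovol2 (-4.86), Esrp1 (-2.76) and Esrp2 (-1.78) lower.

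Cadherin switching was also read within each library, as the log2 ratio of the counts of Cdh3, Cdh2 or Cdh11 to those of Cdh1, from which the library size cancels. In laboratory mouse epidermis Cdh3 to Cdh1 was -3.21 and -3.15 at the wound center and -4.40 and -4.07 at the wound margin, a difference of 1.06. Cdh2 to Cdh1 differed by 2.26 and Cdh11 to Cdh1 by 2.77 between the same libraries, each higher at the wound center with no overlap. The ratio of Cdh2 to Cdh1 was still -9.11 and -9.57 at the wound center, so Cdh1 counts far exceeded those of Cdh2. In dermis of the wound center and the wound margin the Cdh3 to Cdh1 ratio had means of 2.44 and -0.42. There the change lay in Cdh1, as the values above show. An exact permutation test of 2 against 2 libraries cannot go below p = 0.333, which is what each of these 6 comparisons gave (two-sided).

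In spiny mouse epidermis, Cdh3 to Cdh1 was -2.11 in unwounded skin, -1.25 and -0.70 in the PWD14 libraries, 0.10 and -0.41 at PWD21 and -1.23 at PWD28. The PWD21 libraries were the highest of the 6, with counts of the 2 genes about level. Since these reads were aligned to the laboratory mouse genome, level counts need not mean level expression of the 2 genes. Cdh11 to Cdh1 was highest at PWD14, at -4.60 and -6.07, before -6.21 and -7.76 at PWD21 and -8.55 at PWD28. It was -9.63 in the unwounded epidermis library, which held 3 counts of Cdh11 and so was at the floor. In spiny mouse dermis Cdh11 to Cdh1 was 0.19 and 0.79 at PWD0, 9.34 in the PWD14 library, 7.27 and 6.20 at PWD21 and 2.70 at PWD28. In the K14-Cre-Twist1 comparison the ratio of Cdh11 to Cdh1 was 6.99 in the first and -0.08 in the second K14-Cre-Twist1 library, against 7.63 to 9.90 in Twist1+/+ dermis. The smallest p that 2 against 3 libraries allow is 0.1 by an exact permutation test, and each of the 3 ratios gave it.

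**Figure D4:**
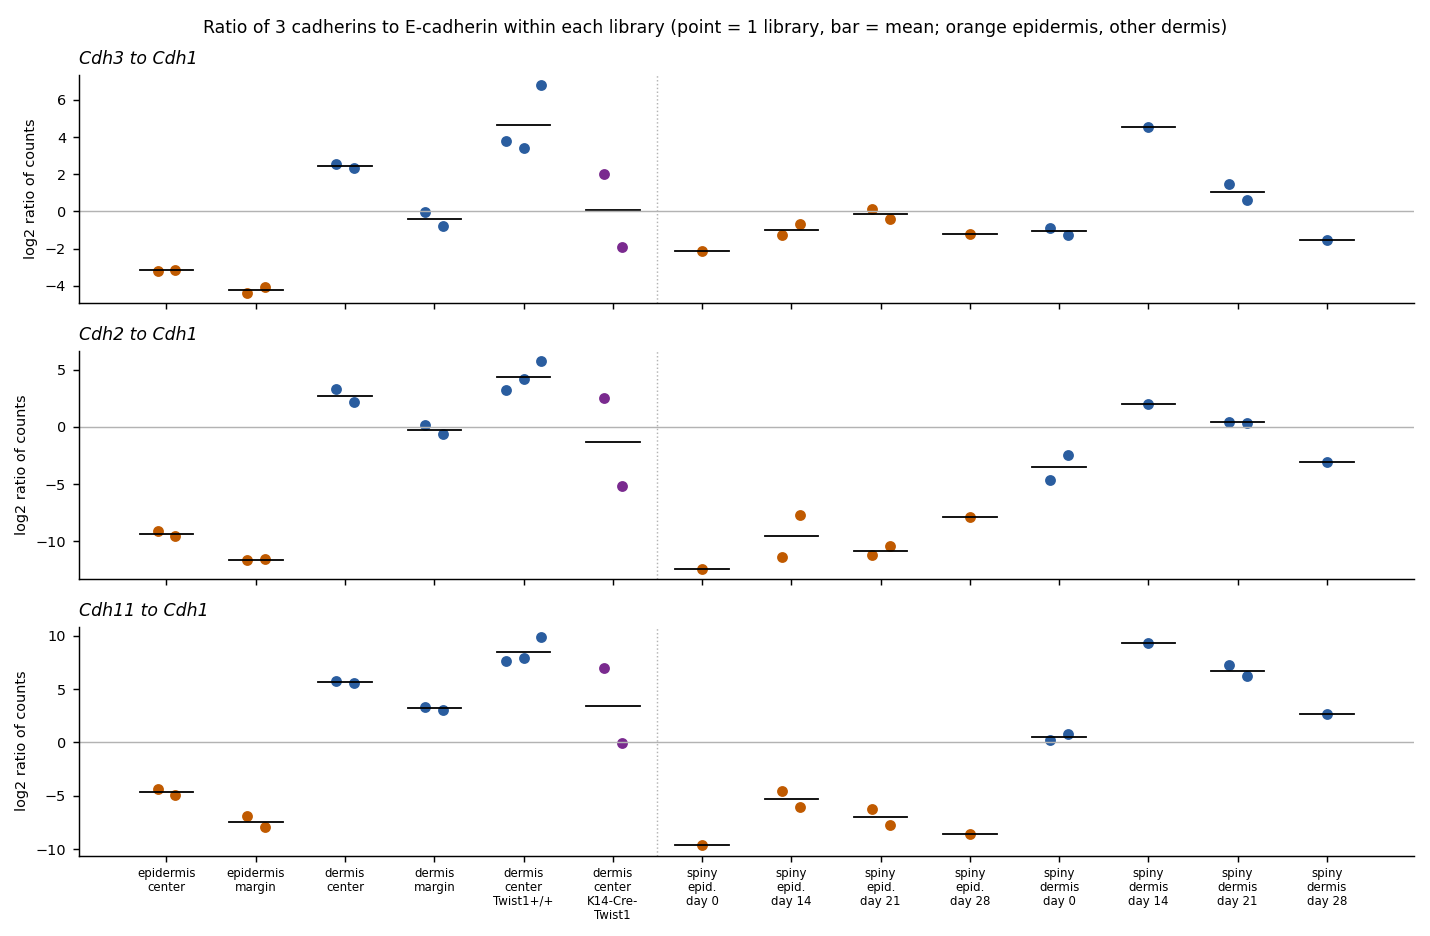
Log2 ratio of Cdh3, Cdh2 and Cdh11 counts to Cdh1 counts in each of the 25 libraries, with 1 point per library and a bar at each group's mean. In spiny mouse epidermis the ratio of Cdh3 to Cdh1 is highest at PWD21 (0.10 and -0.41), and in dermis the ratio of Cdh11 to Cdh1 peaks in the PWD14 library (9.34).

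Across libraries, the genes most like each classical cadherin were found by the Pearson correlation of log2(CPM + 1) over the 13 laboratory and the 12 spiny mouse libraries, taking for each gene the lower of the 2 among the 12615 genes whose mean reached 1 CPM. Layers and depth are shared by all genes of a library, so these values describe the libraries and carry no p. The gene most like Cdh1 was Dsc3, itself a member (r = 0.974 in the laboratory and 0.979 in the spiny mouse), and that most like Cdh11 was Islr (0.987 and 0.992), before the collagen VI genes Col6a3 and Col6a1. Cdh2 was closest to Dennd2a (0.980 and 0.986). Cdh3 had no near match. Its closest gene, H2afy, reached 0.805 and 0.882, and its correlation with Cdh1 was 0.528 and 0.6003, with Cdh11 -0.420 and -0.778.

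**Figure D5:**
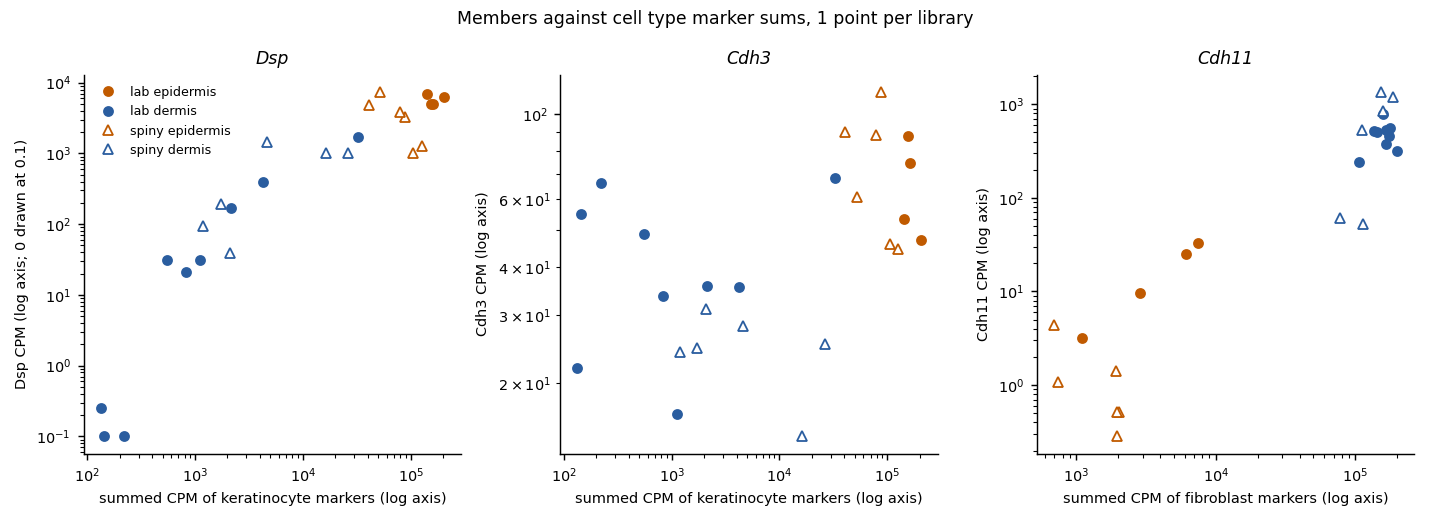
Dsp and Cdh3 against the summed CPM of 14 keratinocyte markers, and Cdh11 against that of 15 fibroblast markers, with 1 point per library on log axes (circles laboratory mouse, triangles spiny mouse). Over dermis libraries Dsp runs from 0 to 1704 CPM, while Cdh3 stays between 14.6 and 68.1 CPM. Per 1000 CPM of keratinocyte markers, dermal Dsp spans 0 to 92.1 CPM in the laboratory and 18.5 to 316 CPM in the spiny mouse.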

How the data were processed

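RNA-seq was read in 25 libraries of separated epidermis and dermis, 13 of laboratory and 12 of spiny mouse. The authors deposited raw read counts per gene symbol (24500 symbols and 5 summary lines, left out here). For alignment to mm10 the methods of the paper name STAR 2.6.1d, and for counting on RefSeq genes htseq-count 0.6.0. The submitters' processing notes name STAR 2.4.1d. The spiny mouse days are those of the labels, from which the sample list of the paper differs by a day or a few. Labels gave the group of each library. The 5 WT wound center dermis libraries were divided by library names that a supplementary figure shows. The 10 members, the partner and marker lists and the tests were chosen with earlier results of these data known. All partner genes with an FDR under 0.05 were named, beside the counts, in the comparisons within a layer.

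CPM was computed from all gene reads, and CPM per kilobase with exon lengths of GENCODE M21. Genes were tested with edgeR 4.0.16 in R 4.3.3 (TMM normalization, filterByExpr, prior count 0.125, quasi-likelihood test with its version 4 estimate of dispersion, Benjamini-Hochberg adjustment over all tested genes), and were tested on simulated data. Standard errors were derived from the F statistic and the log2 fold change. A gene is called at an FDR under 0.05. A fold change against libraries at or under 3 counts is a lower bound, from the mean of the other group over the highest floor of those libraries. The paper describes the replicates as independent experiments, and the labels tie none to an animal. The p-values measure the spread between libraries, which exceeded counting noise in every pair. Alternatives were DESeq2 1.42.0, RLE or library size normalization, no filter on low counts, one fit per species, all 5 WT center dermis libraries, each library left out in turn, another prior count in the ratios and, chosen after seeing the data, the edgeR 3 quasi-likelihood estimate.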

Additional observations from a re-analysis of the deposited data

Results flagged for a closer look

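Among the 5 WT wound center dermis libraries, which the labels put in one group, Dixon's rule marked 3 of 10 members. All 3 were at 0 counts in the Twist1+/+ libraries, so the rate of about 1 in 20 groups that chance gives for continuous values does not apply. Zeros there do not by themselves give a large gap. Dsc3 was also at 0 counts in the Twist1+/+ libraries and was not marked. The gap of the highest library to the next, over the range of the group, was 0.975 for Dsg2 in replicate 1, 0.924 for Dsc1 in replicate 2 and 1 for Dsc2 in replicate 2. Both replicates belong to the set compared with the wound margin.

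The center-margin log2 fold change differed between epidermis and dermis by an interaction test of edgeR for 5 members. The difference of epidermis minus dermis was 2.25 for Cdh1, 2.44 for Cdh11, 3.48 for Dsc3 and 2.97 for Dsp. For Dsg3 the fitted difference was 11.64, a value that depends on the prior count since Dsg3 was at 0 counts in wound center dermis. Cdh11 differs from the others in that its part in dermis was -0.12 and its part in epidermis 2.20, while Cdh1, Dsc3 and Dsp were lower at the wound center in dermis.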

How the results depend on the processing

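Directions and calls of members were kept in 921 refits of single members. The call was lost in 58, gained in 54 and the sign turned in 13. The number of members called moved by over 1.5 times as follows, and the causes were not tested. In epidermis center against margin (0 called), DESeq2 called 2, one fit per species 1 and the fits without a library 0 to 8. In dermis center against margin (3), all 5 WT center libraries gave 5, one fit per species 0 and the fits without a library 1 to 4. In the K14-Cre-Twist1 comparison (0), DESeq2 gave 5, all 5 WT center libraries 3, one fit per species 4 and the fits without a library 0 to 7. In spiny mouse epidermis (5), one fit per species gave 3 and the fits without a library 4 to 6. In spiny mouse dermis (7), the fits without a library gave 3 to 8. In the interaction (5), RLE normalization gave 2, the edgeR 3 estimate 3 and the fits without a library 1 to 5. Signs turned for Cdh11 in dermis (0.42 with all 5 WT center libraries), and in spiny mouse epidermis for Cdh1 (-0.30) and Dsg2 (-0.55) with library size alone and for Dsg2 without the filter (-0.057). Over the fits without a library, the log2 fold change crossed 0 for Cdh11 in dermis (-0.35 to 0.084), Cdh3 in the K14-Cre-Twist1 comparison (-1.51 to 0.44) and in spiny mouse dermis (-0.28 to 0.78), and Cdh1 (-0.063 to 0.52), Dsg2 (-0.90 to 0.63) and Dsg3 (-1.41 to 0.065) in spiny mouse epidermis. Of the ratios 1 moved with the prior count.

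No paired analysis was possible because the labels give no replicate numbers and no animal. With 1 library in 4 of 8 spiny mouse day and layer groups, the day course rests on few libraries. Depth limits Cdh2 in spiny mouse epidermis and the desmosomal genes at 0 in dermis, which were not detectable at this depth, and floors cover counting error only.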
